A study of Homo sapiens with 6 samples.

Results

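The mRNA of 10 EGR and AP-1 transcription factor genes was followed in HCC1806/HM3 cells with and without knockdown of MSLN. The genes were taken by family membership: EGR1 and EGR3, the FOS family (FOS, FOSB, FOSL1 and FOSL2), the JUN family (JUN, JUNB and JUND) and ATF3. All 10 were among the 17860 genes in the deposited table, 9 had a value in every sample, and these 9 were among the 14552 genes tested.

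EGR proteins are zinc finger transcription factors that bind GC-rich DNA. AP-1 is a dimer of basic leucine zipper (bZIP) proteins, in which a JUN protein pairs with a FOS protein, an ATF protein or another JUN protein. Many of these genes are immediate early genes, transcribed within minutes of growth factor or stress signals through factors already present in the cell. Their mRNAs are mostly short-lived, and EGR1 and FOS are common readouts of ERK signaling. In carcinoma cells, AP-1 factors are known for their part in proliferation, invasion and squamous differentiation.

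HCC1806 is a line of human breast squamous cell carcinoma cells. HM3 is its derivative from the liver, selected over 3 passages through nude mice. The cells carried a lentiviral control shRNA (shNC, genotype Control, 3 samples) or a lentiviral shRNA against MSLN (shMSLN, genotype MSLN knockdown, 3 samples), and both had been selected with G418. MSLN encodes mesothelin, a GPI-anchored surface glycoprotein. Both groups were grown alike, without an added stimulus in the labels, and which of the study's MSLN target sequences the sequenced cells carried is not given in the sources used here. The labels do not say whether the 3 shMSLN samples are 1 stable line. The labels do not say whether samples of a group came from separate cultures, so p-values measure only the spread between these samples, which may be technical.

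MSLN itself was at 231, 226 and 227 CPM (read counts scaled to library size) in shNC and at 37.1, 36.2 and 35.4 CPM in shMSLN, 15.9% of the control mean. Estimated counts summed to between 17507837 and 18512135 per sample. Of 8 epithelial markers, all were detected in every sample, from KRT14 at 4.58 to 5.92 TPM (the transcript unit scaled for gene length) to KRT19 at 2624 to 3061 TPM, with EPCAM at 348 to 364 TPM. In shMSLN 1 of the 8 was higher and 3 were lower (50.0% called, against 34.6% of all tested genes). The falls included KRT6A (log2 fold change -1.04, edgeR's adjusted p = 4.12e-07) and KRT5 (-0.38, adjusted p = 1.40e-05). The summed level of the 8 was 6585 to 7236 TPM in shNC and 6429.8 to 6739 TPM in shMSLN. Their part in the results was not tested. The hepatocyte gene ALB reached at most 1 read. Among fibroblast, leukocyte and endothelial markers, CD68 (28.1 to 34.1 TPM) and COL1A1 (11.2 to 12.1 TPM) were highest. The next highest was LYZ, at no more than 4.70 TPM. The shMSLN columns stood apart in the way they were written. Among genes above 100 reads, 47.7% of the counts in shMSLN replicates 2 and 3 were whole numbers, against 3.36% to 7.02% in the other samples. Results were therefore also computed with shMSLN replicate 1 alone against the 3 shNC samples.

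The promoters of a pair of genes are shown because these genes, EGR1 and FOS, had the largest differences among the members. Sequences are from RefSeq on GRCh38.p14, forward strand, 5′ to 3′. Capitals mark matches to the CArG box, the element bound by SRF (a run of A or T bases between CC and GG), and to TGACG, the core bound by CREB and ATF factors, searched on both strands.
EGR1: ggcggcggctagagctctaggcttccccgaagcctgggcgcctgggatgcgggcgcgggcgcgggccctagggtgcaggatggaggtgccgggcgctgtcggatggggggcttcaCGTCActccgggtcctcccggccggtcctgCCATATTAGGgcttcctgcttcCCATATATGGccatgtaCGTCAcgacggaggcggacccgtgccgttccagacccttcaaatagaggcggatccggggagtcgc
FOS: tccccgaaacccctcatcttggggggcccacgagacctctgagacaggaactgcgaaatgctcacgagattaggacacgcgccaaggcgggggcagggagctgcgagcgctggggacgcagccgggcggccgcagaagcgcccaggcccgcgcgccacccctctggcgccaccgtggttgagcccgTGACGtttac
The EGR1 stretch lies at chr5:138465229-138465478 and ends just before the RefSeq start of the gene. It holds CArG boxes 105 and 83 bases upstream of that start, CCATATTAGG and CCATATATGG, and TGACG on the reverse strand, read here as CGTCA, 135 and 66 bases upstream. The FOS stretch lies at chr14:75278578-75278773 and stops where the GENCODE gene begins, with TGACG 64 bases upstream of the RefSeq start. No CArG box was found in the FOS window, which says only that these letters are not within 250 bases of the start.

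The same windows, from 250 bases upstream to just past the start, were read for 8 of the 10 genes. EGR3 and FOSL1 were not read. ATF3 had 2 windows, and a gene was counted when any of its windows held the motif. TGACG was found for 7 of the 8 genes, EGR1, FOS, FOSB, FOSL2, JUN, JUNB and JUND, and in 24.6% of all 35116 RefSeq promoter windows. EGR1 alone among the 8 held a CArG box, found in 1.29% of all windows. The full palindrome TGACGTCA, which contains TGACG on both strands, was in the JUND window (1.85% of all windows). The AP-1 site TGACTCA was in the FOSL2 window (4.95% of all windows). TATAAA was in 4 of the 8 (11.5% of all windows). GGGGCGG, an SP1 site, and CCAAT were in 4 each (30.8% and 34.6%). The EGR1 site GCGTGGGCG (0.795% of all windows) and the ETS site CCGGAAG (10.3%) were in 0 of the 8. These matches are letters in a window, and no test set them against the expression values.

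Within the families, levels are given per length, as the authors' TPM. JUNB, a JUN protein known as a weaker activator than JUN in many settings, was the most abundant member, at 193 to 207 TPM in shNC and 211 to 217 TPM in shMSLN. FOSL2 (FRA-2), a FOS protein without a strong activation domain, came next at 92.1 to 102 and 96.1 to 97.7 TPM. In shNC the order went on with JUND (27.6 to 36.0 TPM), JUN (14.7 to 16.0 TPM), EGR1 (10.1 to 11.6 TPM), FOSL1 (4.96 to 7.32 TPM), ATF3 (2.32 to 3.34 TPM), FOS (1.21 to 2.20 TPM) and FOSB (1.26 to 2.01 TPM). FOS and FOSB overlapped in shNC and could not be ordered, while each of the other neighbours was separated in every sample. In shMSLN, EGR1 (37.9 to 40.0 TPM) stood above JUND (27.0 to 27.6 TPM) and JUN (15.2 to 16.9 TPM). FOS (4.62 to 5.21 TPM) there overlapped FOSL1 (4.47 to 4.76 TPM) and stood above ATF3 (2.85 to 3.04 TPM) and FOSB (1.37 to 2.13 TPM). EGR1 and FOS were thus the genes that changed place in the order.

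**Figure D1:**
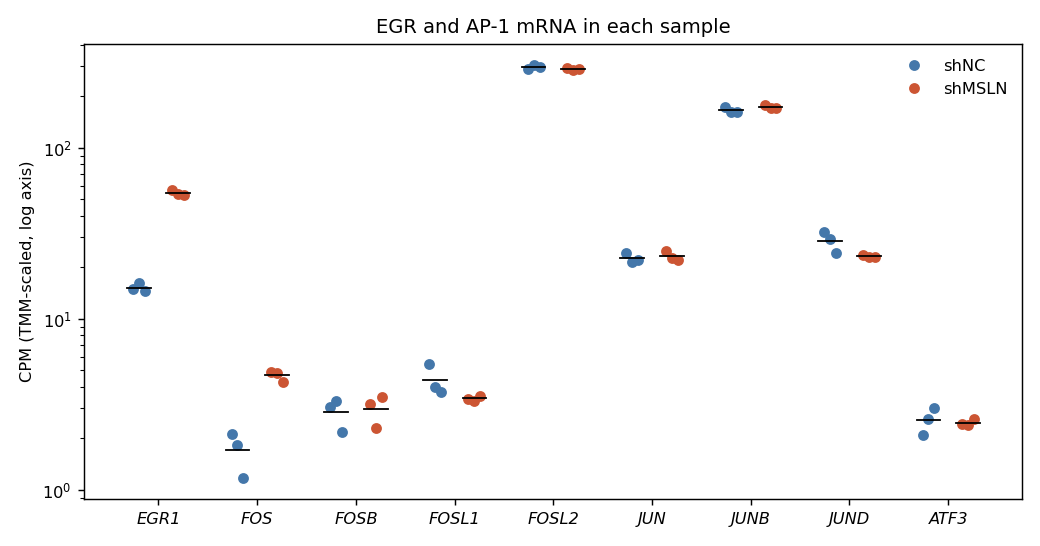
CPM (TMM-scaled, log axis) of the 9 tested genes in each of the 3 shNC samples (blue) and 3 shMSLN samples (red), with a line at each group mean. EGR1 and FOS lie higher in all shMSLN samples, by 3.58-fold and 2.73-fold in the means, JUND and FOSL1 lie lower, and the other 5 overlap.

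Whether the factors moved together with MSLN knockdown was asked of each gene in 1 fit across all genes. EGR1 and FOS rose, JUND fell, and the other 6 tested genes did not pass the test (edgeR's quasi-likelihood test, Benjamini-Hochberg adjusted p below 0.05). The 3 of 9 called, 33.3%, stand beside 34.6% of all tested genes called in either direction, 16.6% higher and 18.0% lower. EGR1 and FOS were also the 2 that passed with a fold above 2, as did 1.96% of all tested genes in either direction and 1.24% as rises. The median log2 fold change was 0.038 over the 9 genes and 0.0019 over all tested genes. In bulk RNA, a change in the number of cells that transcribe a gene and a change in mRNA per cell cannot be told apart.

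EGR1, the zinc finger factor induced by growth factors through ERK and SRF, lies on chromosome 5 at 138465490 to 138469315 (GENCODE 29, GRCh38). Its CPM was 14.9, 16.2 and 14.6 in the shNC samples and 56.6, 54.0 and 52.9 in the shMSLN samples. Every shMSLN sample was above every shNC sample, and the gap between the groups was many times the spread within either. The means were 15.2 ± 0.877 and 54.5 ± 1.89 CPM (SD, n = 3 each), from 262 to 293 and 937 to 1053 reads. The log2 fold change was 1.84 (SE 0.0615, 95% interval 1.71 to 1.97, edgeR's adjusted p = 5.12e-11). Among all tested genes it ranked 24 in size of rise. The value ranged from 1.78 to 1.89 over 19 alternatives, and EGR1 was called in all 19. With shMSLN replicate 1 alone it was 1.89 (edgeR's adjusted p = 8.90e-08).

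FOS, the founding member of its family and a partner of JUN proteins in AP-1, lies on chromosome 14 at 75278774 to 75282230. Its CPM was 2.13, 1.83 and 1.17 in shNC and 4.91, 4.82 and 4.29 in shMSLN. The groups did not overlap, and the lowest sample of each was replicate 3. FOS was scarce, with 39, 33 and 21 reads in shNC and 91, 86 and 76 in shMSLN, so its counting error was larger than that of EGR1. The means were 1.71 ± 0.494 and 4.67 ± 0.333 CPM (SD, n = 3 each). The log2 fold change was 1.44 (SE 0.201, 95% interval 1.02 to 1.87, edgeR's adjusted p = 6.35e-05), rank 61 among the rises. It was called in all 19 alternatives, at 1.12 with limma on log2 of TPM plus 1, which understates low genes, to 1.63 without shNC replicate 1. For FOS with shMSLN replicate 1 alone, edgeR's adjusted p was 0.00430.

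The exact two-sided permutation test on single genes gives p = 0.1 for EGR1 and FOS, the smallest that 3 samples against 3 allow. It gives the same p for the other 2 genes whose groups did not overlap, FOSL1 and JUND. Non-overlap held for 4 of the 9 genes and for 46.2% of all tested genes.

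JUND, the JUN protein usually present in resting cells, lies on chromosome 19 at 18279760 to 18281622. Its CPM was 32.0, 29.2 and 24.3 in shNC and 23.7, 23.0 and 23.0 in shMSLN. The shMSLN samples lay close together and below all controls, with shNC replicate 3 only just above them. The means were 28.5 ± 3.87 and 23.2 ± 0.425 CPM (SD, n = 3 each). The log2 fold change was -0.29 (SE 0.0842, 95% interval -0.47 to -0.11, edgeR's adjusted p = 0.0141). The call for JUND was lost without shMSLN replicate 2 (-0.29, edgeR's adjusted p = 0.0523), with shMSLN replicate 1 alone (-0.26, adjusted p = 0.229) and with limma on log2 of TPM (-0.25 and adjusted p = 0.0552 with 0.1 added, -0.24 and 0.0571 with 1 added). It was kept in the other 15 of 19 alternatives, and was -0.40 without shNC replicate 3 and -0.20 without shNC replicate 1.

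FOSL1 (FRA-1), the FOS protein known from invasive carcinoma cells, did not pass the test. Its CPM was 5.42, 3.99 and 3.73 in shNC and 3.40, 3.31 and 3.56 in shMSLN. All shMSLN samples lay below all controls, but shNC replicate 1 stood well above the rest and shNC replicate 3 close to the knockdown. The log2 fold change was -0.36 (SE 0.170, 95% interval -0.72 to 0.0043, edgeR's adjusted p = 0.117). It was -0.18 without shNC replicate 1 and -0.46 without shNC replicate 3, and was called in 0 of 19 alternatives.

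**Figure D2:**
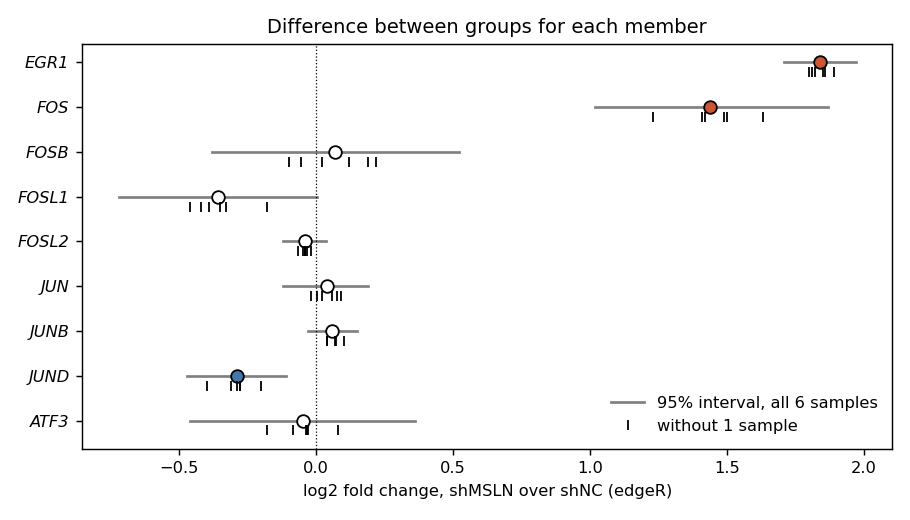
Log2 fold change of shMSLN over shNC for each tested gene, with the 95% interval of the edgeR fit (line), filled where the adjusted p was below 0.05, and the value with each sample left out in turn (ticks). The intervals of EGR1 (1.71 to 1.97) and FOS (1.02 to 1.87) lie far from 0, that of JUND (-0.47 to -0.11) near it, and the other 6 include 0.

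The 2 abundant members differed little and within narrow limits. FOSL2 was at 287, 306 and 298 CPM in shNC and 291, 286 and 289 CPM in shMSLN. Its log2 fold change was -0.041, with a 95% interval of -0.12 to 0.037. JUNB was at 174, 161 and 161 CPM in shNC and 177, 171 and 169.7 CPM in shMSLN. Both pairs of groups overlapped. The interval of JUNB was -0.030 to 0.15 around 0.059 (edgeR's adjusted p = 0.299), and JUNB passed the test in 1 of 19 alternatives, without shNC replicate 1 (0.10, adjusted p = 0.0400). JUN, the prototype of the family and a strong activator, was at 24.2, 21.4 and 22.1 CPM in shNC and 24.9, 22.6 and 22.0 CPM in shMSLN. Its groups overlapped almost fully, and its interval was -0.12 to 0.19 around 0.038.

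FOSB and ATF3 were scarce, and their intervals were wide. FOSB, a FOS protein with a longer-lived splice form, was at 3.07, 3.32 and 2.17 CPM in shNC and 3.17, 2.30 and 3.50 CPM in shMSLN. The samples of both groups were interleaved, with a log2 fold change of 0.067 (95% interval -0.38 to 0.52). ATF3, a stress-induced bZIP factor that often represses, was at 2.08, 2.61 and 3.01 CPM in shNC and 2.42, 2.41 and 2.60 CPM in shMSLN. Its log2 fold change was -0.049 (95% interval -0.46 to 0.36). A difference of the size seen for FOS lies outside the intervals of both genes. EGR3, an EGR protein induced alongside EGR1 in many cells, had 0, 1 and 1 reads in shNC and 0 and 1 reads in shMSLN replicates 2 and 3. It had no value in shMSLN replicate 1 and was at the limit of detection throughout, so no difference could be measured.

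The SD of CPM was larger in shNC than in shMSLN for 6 of the 9 genes. Replicate 3 lay below the shNC mean by 0.38 for FOS, 0.31 for FOSB, 0.22 for JUND and 0.19 for FOSL1 on the log2 scale, while its ATF3 lay 0.21 above. Replicate 1 was the highest shNC sample for FOS, FOSL1, JUN, JUNB and JUND and the lowest for ATF3 and FOSL2. EGR1 did not share this spread, with deviations between -0.061 and 0.090 in shNC. Each of these is a single sample, and its part in the differences is given by the values without it.

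**Figure D3:**
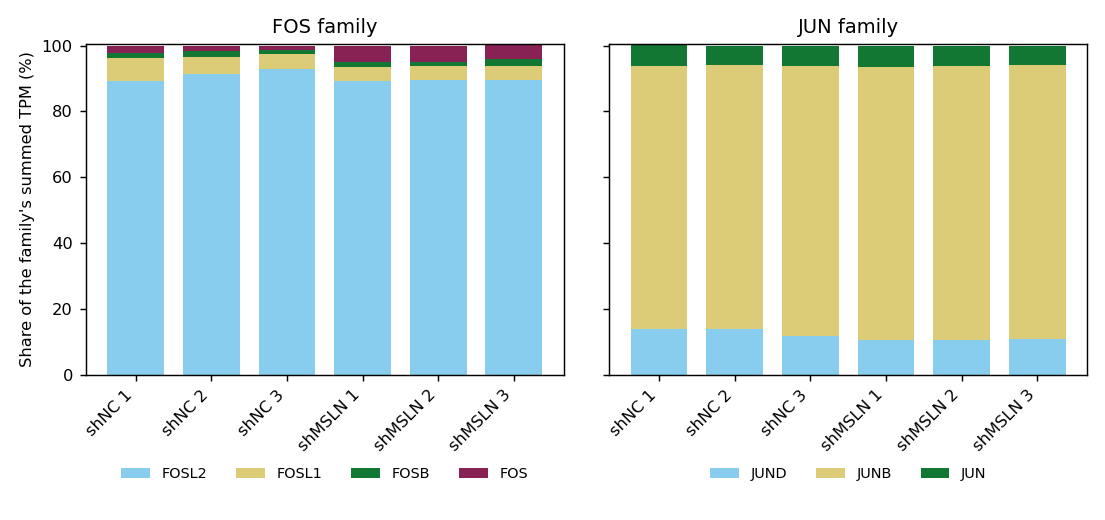
Share of each gene in the summed TPM of the FOS family (left) and the JUN family (right), in percent, in each of the 6 samples. FOS takes 1.17% to 2.13% of its family in shNC and 4.23% to 4.84% in shMSLN, and JUND 11.7% to 13.9% of its family against 10.5% to 10.7%.

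A single gene held most of each family's mRNA in both groups, as the plot of family shares shows. FOSL2 made up 91.1% ± 1.89 of FOS family TPM in shNC and 89.5% ± 0.260 in shMSLN (SD, n = 3 each). FOS itself took 2.13%, 1.77% and 1.17% in shNC and 4.84%, 4.84% and 4.23% in shMSLN. Even after its rise, FOS was a small part of FOS family mRNA, about as large as FOSL1 at 4.25% ± 0.0988. The summed TPM of the family was 106 ± 4.34 in shNC and 108 ± 0.981 in shMSLN. JUNB made up 80.8% ± 1.11 of JUN family TPM in shNC and 83.2% ± 0.181 in shMSLN, and JUN 6.11% ± 0.164 and 6.20% ± 0.252. JUND took 13.9%, 13.8% and 11.7% in shNC and 10.5%, 10.6% and 10.7% in shMSLN. These shares are mRNA per length, carry no test, and say nothing of protein.

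Partners and corepressors were read from the same fit. Of the EGR partners and corepressors, 3 of 5 genes were tested, and NAB1, a corepressor that binds EGR1, fell from 208 ± 12.5 to 184 ± 3.18 CPM (log2 fold change -0.18, edgeR's adjusted p = 0.00625). NAB1 missed the threshold with shMSLN replicate 1 alone (adjusted p = 0.108) and with limma on log2 of TPM (adjusted p = 0.0679 and 0.0683). NAB2, the other corepressor and itself induced by EGR1, was at 29.0 ± 1.92 and 31.6 ± 2.61 CPM (0.13, edgeR's adjusted p = 0.192). WT1, which binds sites much like those of EGR1, was under 1 CPM on average (-0.65, adjusted p = 0.241). EGR2 and EGR4 were not tested, left out by the filter or by a missing value.

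Of 15 other bZIP genes that can pair with FOS or JUN proteins or compete for their sites, 11 were tested, 4 fell and 0 rose (36.4% called). Over all tested genes 34.6% were called in either direction, 16.6% higher and 18.0% lower. All 4 calls of the list were falls, so only its share in either direction was near that of all tested genes. The median log2 fold change of the list was -0.10. MAFF, a small MAF protein without an activation domain, fell from 31.1 ± 1.35 to 17.4 ± 1.43 CPM (-0.84, edgeR's adjusted p = 4.95e-07). NFE2L2, the NRF2 factor of the oxidative stress response that pairs with small MAF proteins, fell from 374 ± 7.56 to 304 ± 3.09 CPM (-0.30, edgeR's adjusted p = 1.09e-05). MAFG, another small MAF protein, had a log2 fold change of -0.26 (edgeR's adjusted p = 0.00148), and the fourth that fell was BATF. In the fit with shMSLN replicate 1 alone, fewer genes were called here and over all tested genes, and MAFG was not called.

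Upstream of the immediate early genes stand the MAP kinases, SRF and its ternary complex partners. All 20 genes of this list were tested, of which 1 rose and 6 fell (35.0% called, median -0.063). Over all tested genes 34.6% were called, 16.6% higher and 18.0% lower, so the share called in this list was near that of all tested genes. Fewer were called with shMSLN replicate 1 alone, here as over all tested genes. ELK3, a ternary complex factor that represses until phosphorylated, fell from 71.0 ± 2.17 to 52.1 ± 2.01 CPM (-0.45, edgeR's adjusted p = 5.75e-06). ELK4, another ternary complex factor, fell from 189.8 ± 15.3 to 156 ± 2.50 CPM (-0.29, edgeR's adjusted p = 5.37e-04). MAPK3, which encodes ERK1, rose from 51.9 ± 2.42 to 60.3 ± 0.495 CPM (0.22, edgeR's adjusted p = 0.00314, and 0.109 with shMSLN replicate 1 alone). These are mRNA levels, and kinase activity was not measured by them. By Western blot, the paper reports lower ERK phosphorylation after MSLN knockdown in HM3 cells. How the rises of EGR1 and FOS mRNA relate to that protein result was not tested.

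The other immediate early genes moved both ways. Of 26 tested genes, 5 rose and 8 fell (50.0% called, against 34.6% of all tested genes, 16.6% higher and 18.0% lower), with a median log2 fold change of 0.0092. The rises were CCN1 (0.79, edgeR's adjusted p = 1.74e-05) and CCN2 (0.46, adjusted p = 0.00345), matricellular proteins, GADD45B (0.44, adjusted p = 3.04e-05), a stress-induced growth arrest gene, IER2 (0.24, adjusted p = 0.00351) and the nuclear receptor NR4A1 (0.36, adjusted p = 0.0481). Each was smaller than the rises of EGR1 and FOS. The groups of NR4A1 overlapped, at 8.22, 6.23 and 5.97 CPM in shNC and 9.75, 8.03 and 8.44 CPM in shMSLN. Those of the other rises in this list did not overlap. BTG2, an antiproliferative gene, fell from 129.7 ± 9.79 to 91.3 ± 2.90 CPM (-0.51, edgeR's adjusted p = 4.14e-06). With shMSLN replicate 1 alone, fewer genes were called both in this list and over all tested genes. A CArG box was found for 0 of the 18 genes of this list whose windows could be read.

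**Figure D4:**
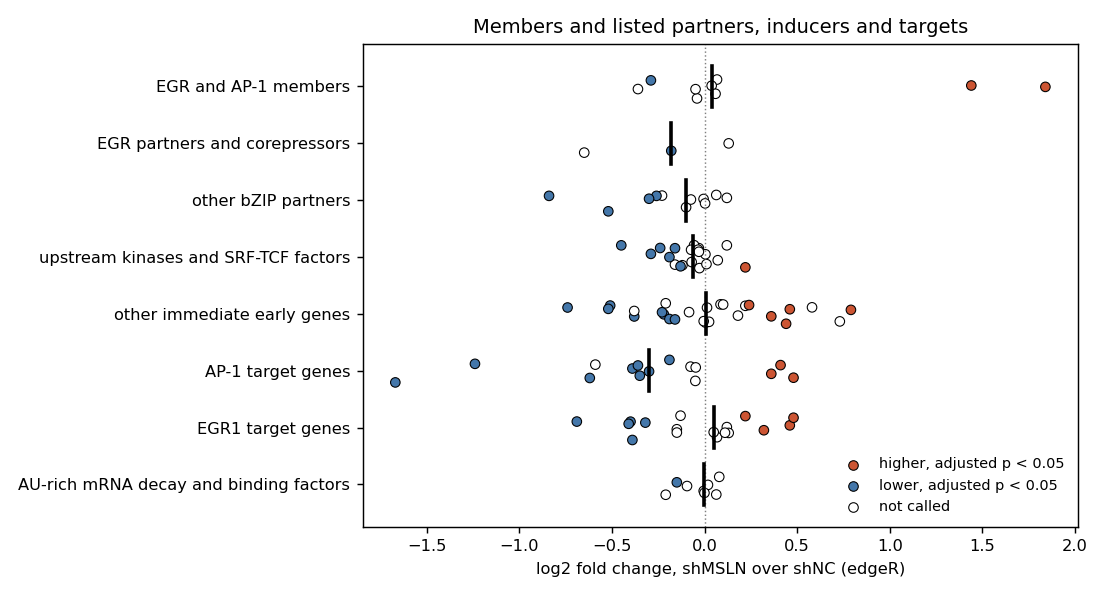
Log2 fold change of shMSLN over shNC for the tested members and the tested genes of each list, filled where the adjusted p was below 0.05 (red higher, blue lower), with a bar at the median. EGR1 (1.84) and FOS (1.44) are the rightmost points, and HBEGF (-1.67) and CXCL8 (-1.24) the leftmost.

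Genes known in other settings as AP-1 targets were read in the same way. Of 15 tested, 3 rose and 8 fell, with a median log2 fold change of -0.30 and 73.3% called, beside 34.6% of all tested genes called, 16.6% higher and 18.0% lower. HBEGF, a ligand of EGFR, was at 21.4 ± 1.61 CPM in shNC and 6.71 ± 0.437 CPM in shMSLN (SD, n = 3 each). It fell by 1.67 on the log2 scale (edgeR's adjusted p = 6.04e-09). The chemokine gene CXCL8 fell from 12.8 ± 0.686 to 5.42 ± 0.597 CPM (-1.24, edgeR's adjusted p = 6.24e-07). PLAU, the urokinase protease, fell from 53.5 ± 1.66 to 34.8 ± 1.01 CPM (-0.62, edgeR's adjusted p = 3.61e-07). The 3 rises were TIMP1, a metalloproteinase inhibitor, from 40.2 ± 0.407 to 53.4 ± 0.651 CPM, IVL, which encodes the cornified envelope protein involucrin, from 23.3 ± 1.52 to 30.0 ± 1.39 CPM, and VEGFA, the angiogenic factor, from 24.7 ± 1.85 to 34.4 ± 1.21 CPM. TGACTCA was found for 6 of the 13 genes of this list whose windows were read. Of these, IVL rose, CXCL8 fell, PLAUR was not called, and SPRR1A, SPRR1B and SPRR3 were not among the tested genes.

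Genes known as EGR1 targets were split, with 4 rising and 5 falling of 17 tested (52.9% called, median 0.049). The shares of all tested genes were 34.6% called, 16.6% higher and 18.0% lower. PDGFA, a growth factor whose promoter EGR1 can bind, fell from 142 ± 3.90 to 106 ± 1.41 CPM (-0.41, edgeR's adjusted p = 1.63e-06). F3, tissue factor, fell from 121 ± 7.21 to 91.1 ± 2.25 CPM (-0.40, edgeR's adjusted p = 1.44e-05). PTGES, a prostaglandin E synthase, fell from 314 ± 8.24 to 241 ± 8.80 CPM (-0.39, edgeR's adjusted p = 2.77e-06). The 4 rises were HPSE (heparanase, 0.46), MMP14 (a membrane metalloproteinase, 0.22), FN1 (fibronectin, 0.32) and VEGFA (0.48), the last also on the AP-1 list. GCGTGGGCG was found for 2 of the 12 genes whose windows were read, PTGES, which fell, and TGFB1, which was not called. Target lists collect genes from other cell types, so a listed gene need not depend on the factor in these cells.

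The proteins that bind AU-rich elements shorten or lengthen the life of mRNAs such as FOS. All 8 of these genes were tested, 0 rose and 1 fell (12.5% called, median -0.0030). Of all tested genes 34.6% were called, 16.6% higher and 18.0% lower. KHSRP, which promotes decay, fell from 277 ± 9.35 to 249.9 ± 9.05 CPM (-0.15, edgeR's adjusted p = 0.00897). The decay factor ZFP36 was at 9.77 ± 0.250 and 8.44 ± 0.508 CPM (-0.21, edgeR's adjusted p = 0.103), and the stabilising factor ELAVL1 at 95.5 ± 1.08 and 89.4 ± 2.68 CPM (-0.095, adjusted p = 0.0936). The call for KHSRP was lost without shMSLN replicate 2 (adjusted p = 0.0749), and 2 genes of the list were called without shNC replicate 1 or without shNC replicate 2.

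The genes whose profiles over the 6 samples were most like that of EGR1, by Euclidean distance of centred log2 CPM, were TENM2 (distance 0.229), ALDH1A1 (0.232), PDGFD (0.279), SLITRK3 (0.287) and UPK2 (0.322). All 5 passed the test. The log2 fold changes were 1.91 for TENM2, a teneurin adhesion protein, 1.68 for ALDH1A1, a retinaldehyde dehydrogenase, and 1.73 for PDGFD, a platelet-derived growth factor. They were 1.99 for SLITRK3, a neuronal membrane protein, and 1.57 for UPK2, a uroplakin. With 6 samples in 2 groups, this likeness is mostly the difference between the groups itself.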

How the data were processed

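BGI sequenced RNA of 3 shNC and 3 shMSLN samples. The authors deposited 1 table of genes with estimated counts, FPKM and TPM values per sample. The estimated counts of the authors are not scaled, whereas the deposited FPKM and TPM are relative to gene length and to the depth of the sample. The submitters' processing notes name GRCh38 (patch 13). The aligner, counter and strand setting are not given in the sources used here. The shMSLN columns hold marks of missing values: 1287 genes lacked a value in at least 1 sample and were left out, EGR3 among them. Each shMSLN column held 695 to 704 marks written #N/A, and the shNC columns held 0. Replicate 1 of shMSLN also held 399 marks written NA and 0 zero counts. Replicates 2 and 3 held 405 and 393 zero counts. Whether the marks stand for counts of 0 was not tested.

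Estimated counts of the remaining 16573 genes were rounded, filtered with filterByExpr, scaled by TMM and tested by the quasi-likelihood test of edgeR 4.0.16 (R 4.3.3) without covariates, with Benjamini-Hochberg adjustment over 14552 genes. A gene was called at an adjusted p below 0.05. The SE is the log2 fold change over the square root of F. CPM use TMM-scaled library sizes. TPM and FPKM served for levels between genes, and TPM for limma 3.58.1 as an alternative. Other alternatives were other scalings and filters, DESeq2 1.42.0, limma-voom, robust estimation, a replicate block, missing values as 0 and leaving out each sample. Genes at 1 CPM had fewer than 20 reads per sample, which limits how precisely they were measured.

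On simulated counts with 200 genes changed 2-fold, edgeR recovered 94.0% among 14459 genes tested and called 13 unchanged genes. The changed genes had at least 1 CPM, and the simulated spread was the one fitted to these 6 samples. These figures therefore do not cover smaller changes, such as that of JUND, or spread between separate cultures. The members, lists, rule for named genes and tests were chosen with earlier results of these data known. The rule named all 10 members, the 3 genes of each list with the smallest adjusted p and a mean of at least 1 CPM (all tested genes of a list with fewer than 3 such genes), and the 5 genes nearest to EGR1 in profile. BATF, CCN2, IER2, NR4A1, TIMP1, IVL, VEGFA, HPSE, MMP14, FN1, PLAUR, TGFB1, KRT5, KRT6A, KRT14, KRT19, EPCAM, ALB, CD68, COL1A1, LYZ and the SPRR genes complete counts or marker checks and were named after their values were seen. The table was read for gene names as given, and gene positions are those of GENCODE 29.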

Additional observations from a re-analysis of the deposited data

How the results depend on the processing

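Of 683 values of single genes under the alternatives, 671 kept their side of the threshold, 11 lost the call and 1 gained it. The 11 concern JUND, NAB1, MAFG, MAPK3 and KHSRP, and the 1 is JUNB. Direction was reversed in 0 values where either fit called the gene. Among members near 0 that were not called, the direction did change. FOSB went to -0.10 and ATF3 to 0.079 without shNC replicate 3. JUN went to -0.018 without shMSLN replicate 1, and FOSL2 to 0.0029 with limma on log2 of TPM plus 0.1. In a fit of shMSLN replicate 1 alone against the 3 shNC samples, added after seeing the data, 1797 genes were called, 876 higher and 921 lower, with 0 members lower. The lone sample is assumed there to vary like the controls. In that fit 0 EGR partners, 2 other bZIP genes, 3 upstream genes, 6 immediate early genes and 0 AU-rich factors were called, with fewer samples than in any other fit. Upper-quartile scaling and total counts alone each called 2 AU-rich factors, and moved the median of all genes to 0.031 and 0.032. Leaving out 1 sample at a time gave 0 (without shMSLN replicate 2) to 1 members lower and 0 (without shMSLN replicate 2) to 2 AU-rich factors (without shNC replicate 1 or 2).

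Same-numbered samples correlated in their deviations by 0.22, 0.083 and 0.11 over 13760 genes, and every sample correlated best with its own number. The labels do not name them as pairs, and the main fit holds no term for the number. Whether same-numbered samples share a batch was not tested. With the replicate block 5789 genes were called, against 5032, and the 3 members called were still 2 higher and 1 lower. The family shares from FPKM matched those from TPM but for rounding. Within a sample these units differ by a factor common to all genes, so this is no separate check. EGR3 fitted on the 5 samples that have a value, with no filter, gave a log2 fold change of -0.32 (edgeR's adjusted p = 0.910) from at most 1 read per sample. FOS, FOSB, FOSL1 and ATF3, under 100 reads per sample, are the members that depth limits most.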
